A study of Mus musculus with 2 samples.

Results

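Cycling radial glia of the embryonic mouse cortex were examined in single-cell RNA sequencing data from wild-type (WT) embryos at embryonic day 16.5 (E16.5). They were selected on raw unique molecular identifier (UMI) counts, each UMI standing for 1 captured mRNA molecule, by a gate. A cell needed 1500 to 60000 UMIs with under 10% from mitochondrial genes, and at least 3 of 6 radial glia genes (Hes5, Sox9, Tnc, Slc1a3, Aldoc and Ednrb) had to be above 0. It could hold no UMI of 6 genes of other lineages: Eomes of intermediate progenitors, Dlx1, Dlx2 and Gad2 of ventral and inhibitory cells, Pdgfra of oligodendrocyte precursors, and Cldn5 of endothelium. Cells with at least 2 UMIs of Mki67 and Top2a together were called cycling, and those with 0 non-cycling. The gate took 242 cycling cells, 113 of 8139 kept cells in WT replicate 1 (1.39%, Wilson 95% interval 1.16% to 1.67%) and 129 of 8209 in WT replicate 6 (1.57%, 1.32% to 1.86%). Another 357 radial glia were non-cycling, and the 77 with exactly 1 such UMI were put in neither class.

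By its title and design text, the series addresses conditional loss of Dot1l, a histone methyltransferase gene, under Emx1-Cre, which recombines in progenitors of the dorsal telencephalon. Only its 2 E16.5 WT libraries, WT replicate 1 and WT replicate 6, were used here, both from the EmxDot line and from dissociated dorsal telencephalon. Embryos with the conditional knockout were not analysed here. The labels give the WT genotype without listing alleles, and they do not say how many embryos went into a library. All p-values therefore measure only the spread between these 2 libraries, which may be technical. Libraries were made with the 10x Genomics single cell 3' v3.1 chemistry.

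Radial glia are the stem cells of the developing cortex. Their cell bodies line the ventricle and their long fibres guide newborn neurons, and by dividing they renew themselves and give rise to intermediate progenitor cells (IPCs), which divide again to produce excitatory neurons. Late in neurogenesis radial glia also begin to make glia. Ki-67, the product of Mki67, is a chromosome-coating protein of dividing cells, and Top2a encodes the topoisomerase that untangles replicated DNA before mitosis, so that transcripts of both accumulate from S phase into mitosis and are scarce in G1.

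The deposited matrices held 14136 and 13046 cells with 74930397 and 68964234 UMIs. A total of 59 barcodes occurred among the deposited cells of both libraries, and 1 cycling radial glial cell carried such a barcode. Cycling radial glia were deeper than non-cycling ones, with a median of 11425 and 10728 UMIs per cell in WT replicates 1 and 6 against 8147 and 8170.5. Cycling IPCs, gated by Eomes above 0 with the other 5 excluded genes at 0 and the same cycling rule, had 12978 and 12401. Non-cycling IPCs had 8650 and 8262. Cells scored as likely doublets made up 12.4% and 21.7% of cycling radial glia, 13.7% and 11.0% of non-cycling radial glia, and 24.7% and 28.3% of cycling IPCs. They were kept in all main values. The part of depth and doublets in the differences described here was not tested beyond the alternatives given with them.

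To show how the gated cells were placed around the thresholds, the gate genes are given as a description, since they chose the cells. Slc1a3, which encodes a glutamate transporter, was present in 97.9% of the 242 cycling cells, Tnc, an extracellular matrix gene, in 87.2%, and Sox9, a transcription factor gene of neural stem cells, in 79.3%. Hes5, a Notch target, was present in 59.5%. Both Mki67 and Top2a were present in 194 cells, Mki67 alone in 27 and Top2a alone in 21. The summed UMIs of both genes had a median of 9 and 7 per cell and reached 118 and 103. Just inside the cycling threshold, the 34 cells with exactly 2 such UMIs summed to 5330 and 2345 CPM (UMIs of a class scaled to a common total) over 44 S-phase genes, and to 5071 and 6138 CPM over 53 G2/M genes. Just outside it, the 77 cells with 1 UMI summed to 2683 and 2227 CPM for S phase and 4734 and 3610 CPM for G2/M. On the radial glia side, the otherwise matching cells with only 2 of the 6 genes, 29 and 17 in the libraries, held 7760 and 14631 CPM of a 22-gene radial glia list without gate genes. The 48 cells with exactly 3 held 13350 and 14665 CPM.

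The label was checked with markers that the gate had not used. Fabp7, which encodes a fatty acid binding protein of radial glia, stood at 7490.2 CPM in WT replicate 1 and 7466 in WT replicate 6 in cycling radial glia, against 458 and 518 CPM in all kept cells outside the radial glia gate. The 22-gene radial glia list summed to 20109 and 18649 CPM in cycling radial glia and to 3615 and 3591 CPM in those other cells. The 12-gene neuron list summed to 1954 and 2740 CPM in cycling radial glia, 2757 and 2821 in non-cycling radial glia and 12046 and 12133 in excitatory neurons. Those neurons were gated by at least 3 of 6 neuron genes, Neurod6 among them, with the radial glia and excluded genes at 0, so their level follows from the gate. Neurod6, a transcription factor gene of excitatory neurons, had a UMI in 33.6% and 32.6% of cycling radial glia, and after thinning each cell to 1500 UMIs in 8.85% and 9.30%. Cells gated by at least 4 of 7 microglia genes, which should lack it, had it in 28.9% and 26.8%, and thinned in 6.67% and 8.25%. The part of neuronal RNA in the results was not tested. Ganglionic eminence genes summed to 18 and 16 CPM against 513 and 501 in the other cells, and fibroblast genes to 8 and 15 against 175 and 162. Choroid and ependymal genes summed to 10 and 3 CPM against 477 and 3. Microglia genes came to 102 and 16 CPM against 174 and 168, and endothelial and mural genes to 22 and 97 against 209 and 206. The gate excluded cells with Dlx1, Dlx2, Gad2 or Cldn5, so low ganglionic eminence and endothelial levels can follow from it. A 9-gene dorsal telencephalon list summed to 1514 and 1515 CPM against 781 and 817, with 4 genes higher and 3 lower. Globin and other erythroid transcripts reached 3208 and 1681 CPM, below the 14502 and 21507 CPM of the other cells.

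Among gated radial glia, 34.9% were cycling in WT replicate 1 (95% Wilson interval 29.9% to 40.2%) and 36.6% in WT replicate 6 (31.8% to 41.8%), a mean of 35.8% ± 1.25 (SD, n = 2). Of the gated IPCs, 93 of 560 (16.6%) and 92 of 599 (15.4%) were cycling by the same rule. These intervals cover counting error only, and the shares depend on the threshold and on depth. With Mki67 and Top2a required to sum to at least 4, the share of radial glia was 26.4%. Cycling radial glia made up 11.8% and 14.5% of all kept cells with at least 2 such UMIs. A further 149 and 140 cells with 3 or more radial glia genes and at least 2 cycling UMIs fell outside because they held a UMI of an excluded gene.

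Promoters of 6 cell-cycle genes are printed because the main contrast below runs between genes of G2/M and genes of S phase. Cdk1 encodes the kinase that drives entry into mitosis, Ccnb2 one of its cyclin partners and Kif11 the motor that pushes spindle poles apart. Uhrf1 encodes the factor that brings the maintenance DNA methyltransferase to newly made DNA, Hells a chromatin remodeller, and Mcm5 a subunit of the replicative helicase. Each run holds the 250 bases before the annotated start, 5' to 3' on the gene's strand, from RefSeq on build GRCm38.p6. Capitals mark matches, on either strand, to the cell-cycle homology region TTTGAA (CHR), the CCAAT box, and the E2F-type sites TTCCCGC and TTGGCGC. The intervals are chr10:69352913-69353162 (minus strand) for Cdk1, chr9:70421555-70421804 (minus) for Ccnb2 and chr19:37376132-37376381 (plus) for Kif11. For the S-phase genes they are chr17:56303087-56303336 (plus) for Uhrf1, which has 2 starts in the table, chr19:38930740-38930989 (plus) for Hells and chr8:75109259-75109508 (plus) for Mcm5.
Cdk1: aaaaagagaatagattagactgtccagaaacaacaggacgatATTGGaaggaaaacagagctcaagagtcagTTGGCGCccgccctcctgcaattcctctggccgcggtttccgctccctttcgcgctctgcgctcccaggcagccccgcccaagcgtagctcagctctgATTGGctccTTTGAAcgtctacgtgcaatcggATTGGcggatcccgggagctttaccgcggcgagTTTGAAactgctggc
Ccnb2: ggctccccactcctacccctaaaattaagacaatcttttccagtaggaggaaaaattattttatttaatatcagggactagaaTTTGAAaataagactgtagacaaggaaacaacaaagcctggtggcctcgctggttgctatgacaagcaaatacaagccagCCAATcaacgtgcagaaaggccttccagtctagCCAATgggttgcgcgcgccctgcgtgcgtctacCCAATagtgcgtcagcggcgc
Kif11: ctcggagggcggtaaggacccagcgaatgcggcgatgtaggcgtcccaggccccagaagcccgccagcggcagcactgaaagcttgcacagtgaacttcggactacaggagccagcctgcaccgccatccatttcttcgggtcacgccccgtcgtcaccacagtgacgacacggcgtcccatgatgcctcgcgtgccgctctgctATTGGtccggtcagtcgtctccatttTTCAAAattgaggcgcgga
Uhrf1: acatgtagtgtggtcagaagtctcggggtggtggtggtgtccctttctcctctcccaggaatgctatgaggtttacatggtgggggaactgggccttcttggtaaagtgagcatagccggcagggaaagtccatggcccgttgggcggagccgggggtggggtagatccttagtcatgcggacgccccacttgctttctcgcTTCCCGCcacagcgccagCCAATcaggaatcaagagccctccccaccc
Hells: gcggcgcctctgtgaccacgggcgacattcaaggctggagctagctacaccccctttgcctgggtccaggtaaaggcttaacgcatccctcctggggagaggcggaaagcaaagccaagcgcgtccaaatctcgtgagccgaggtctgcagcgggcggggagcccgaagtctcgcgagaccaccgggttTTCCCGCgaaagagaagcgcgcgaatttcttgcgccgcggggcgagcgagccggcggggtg
Mcm5: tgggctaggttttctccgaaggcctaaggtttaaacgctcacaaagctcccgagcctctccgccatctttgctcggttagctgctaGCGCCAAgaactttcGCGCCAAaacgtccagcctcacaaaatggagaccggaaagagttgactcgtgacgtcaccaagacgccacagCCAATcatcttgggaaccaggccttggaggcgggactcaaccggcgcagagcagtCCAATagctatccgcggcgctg

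Across 27025 promoters of this length, 16.3% held the CHR letters, 34.5% CCAAT and 5.71% one of the E2F-type sites. Of the 53 G2/M genes, 46 had a promoter in the table, and 17 of them (37.0%) held CHR, 35 (76.1%) CCAAT and 5 (10.9%) an E2F-type site. Of the 44 S-phase genes, 33 had a promoter, and 5 (15.2%) held CHR, 24 (72.7%) CCAAT and 15 (45.5%) an E2F-type site. TTCCCGC was found in 12 of these 33 and in 0 of the 46 G2/M promoters. Of the 20 radial glia list promoters found, 12 (60.0%) held CCAAT, 1 held CHR and 0 an E2F-type site. These matches describe the letters in the window only, and no binding was measured.

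To examine how far cycling radial glia stood in the cycle, the summed levels of the S-phase and G2/M lists were compared across 6 cell classes. The S-phase list reached 3748 and 3526 CPM in cycling radial glia, against 1591 and 1710 in non-cycling radial glia. The G2/M list reached 15327 and 12930 CPM against 2065 and 2029. Since Mki67 and Top2a chose the cells, both directions follow from the rule and are given without a test. The same lists in cycling IPCs came to 4477 and 4645 CPM for S phase and 12394 and 13370 for G2/M. Gated excitatory neurons held 785 and 761 CPM for S phase and 1998 and 2056 for G2/M. Their gate set no limit on Mki67 and Top2a, which summed to 20.8 and 22.3 CPM in them. Non-cycling radial glia thus held about the G2/M level of neurons while their S-phase level lay above that of neurons and of non-cycling IPCs (1074 and 986 CPM) in both libraries.

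**Figure D1:**
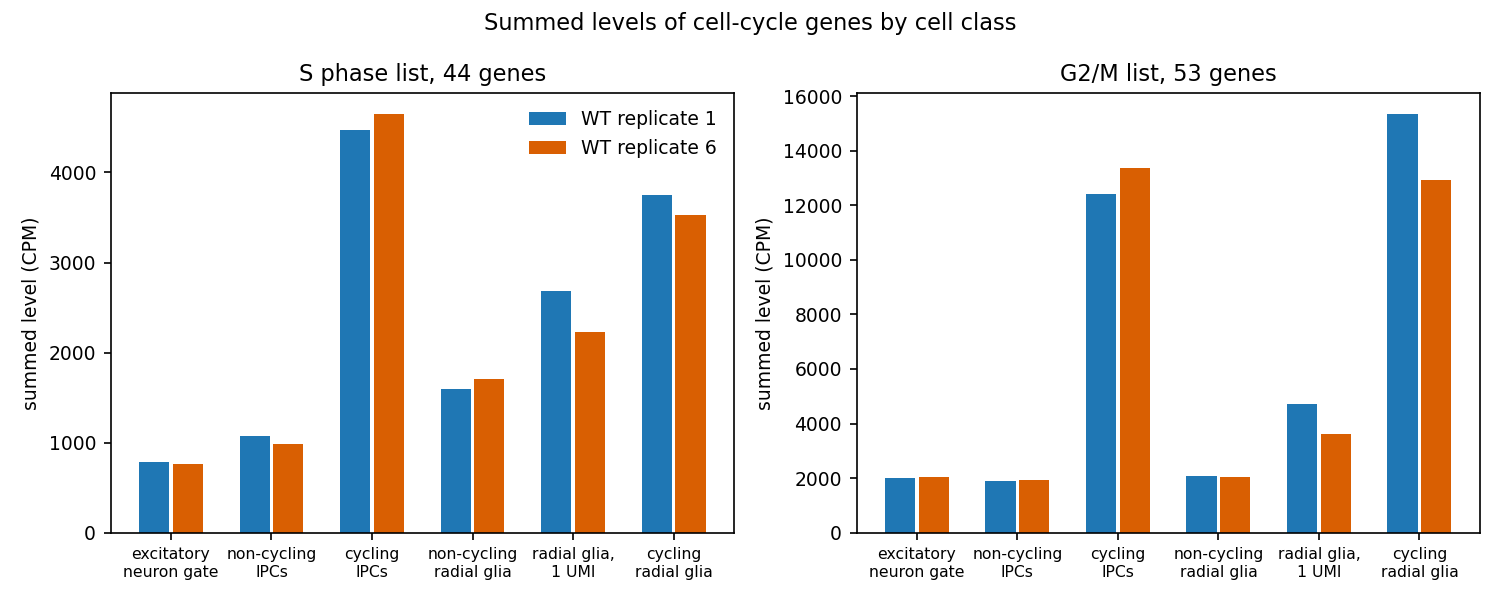
Summed level in CPM (bars from 0) of the 44-gene S-phase list and the 53-gene G2/M list in 6 cell classes, 1 bar per library. In non-cycling radial glia the G2/M bars, 2065 and 2029, are near those of excitatory neurons, while the S-phase bars, 1591 and 1710, stand above the neurons' 785 and 761.

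Single cells were then thinned to 1500 UMIs each, so that depth did not set the counts. In cycling radial glia the median thinned cell held 5 and 4 S-phase UMIs and 20 and 16 G2/M UMIs. Of these cells, 97.3% and 93.8% had at least 3 G2/M UMIs, but so had 51.9% and 52.7% of excitatory neurons, which gives the background of this count. At least 3 S-phase UMIs were found in 72.6% and 61.2% of cycling radial glia, 32.0% and 33.0% of non-cycling radial glia, 14.8% and 13.1% of non-cycling IPCs and 11.97% and 11.3% of neurons. Both lists reached 3 UMIs in 70.8% and 58.9% of cycling radial glia, G2/M alone in 26.5% and 34.9%, and S phase alone in 1.77% and 2.33%. Among non-cycling radial glia, S phase alone was reached in 10.9% and 12.1%.

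**Figure D2:**
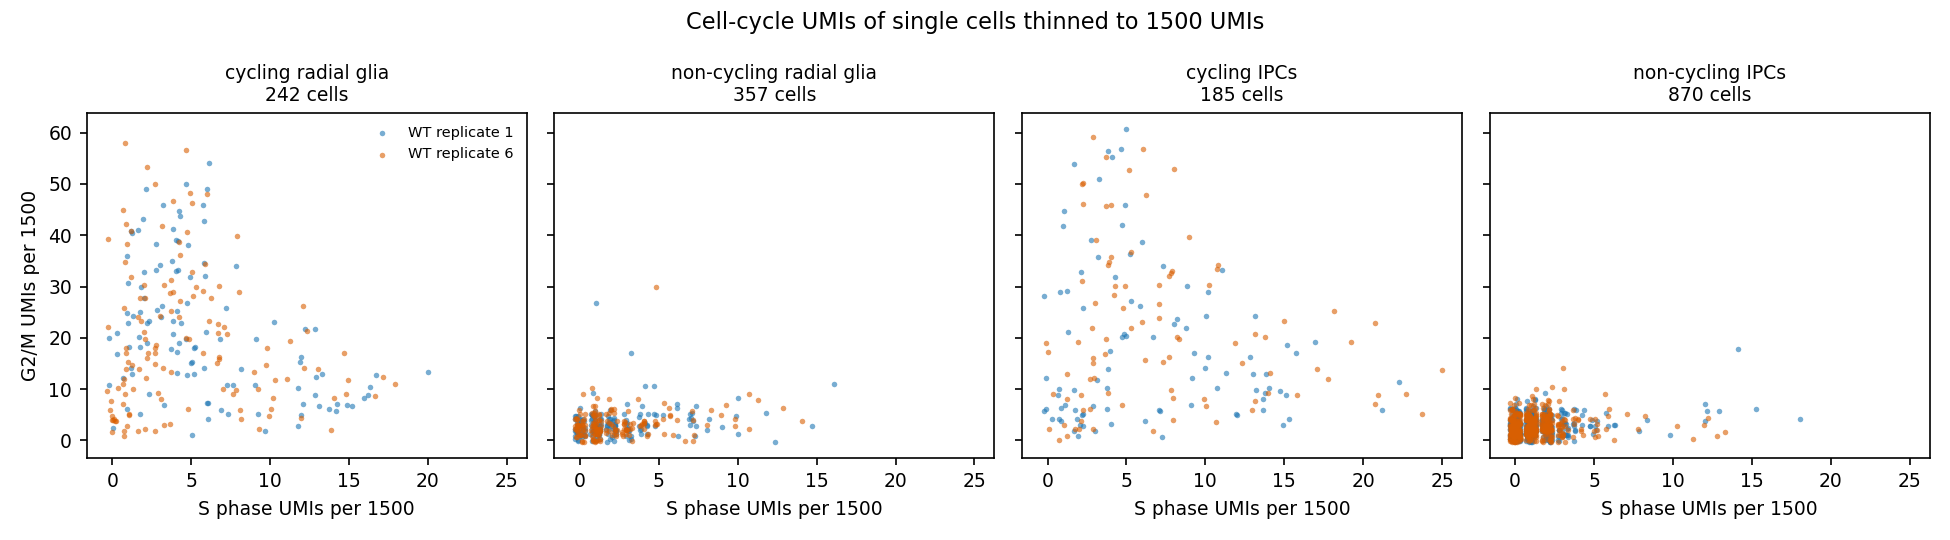
S-phase UMIs (x axis) against G2/M UMIs (y axis) per cell after thinning to 1500 UMIs, with slightly jittered points, for 242 cycling and 357 non-cycling radial glia, 185 cycling and 870 non-cycling IPCs. Cycling cells of both progenitor types spread upward along the G2/M axis, and most non-cycling cells stay low on it.

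Cycling and non-cycling radial glia were compared over UMIs summed per library and class with edgeR's quasi-likelihood test, for 11171 genes. At an adjusted p under 0.05, 731 genes (6.54%) were higher and 545 (4.88%) lower in cycling radial glia, and 2772 genes had an unadjusted p under 0.05. The median log2 difference over all genes was -0.01. DESeq2 called 396 higher (3.54%) and 202 lower (1.81%), and edgeR with the library as a block 925 (8.28%) and 764 (6.84%).

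Of 53 G2/M genes, 52 were higher in cycling radial glia, with a median log2 difference of 4.90, and Cbx5, of a heterochromatin protein, was the one that did not pass. These cell-cycle values follow from the choice of cells and are a description. Kif11 was at 257 and 254 CPM in cycling and 4.03 and 4.06 CPM in non-cycling radial glia, a log2 difference of 5.96 ± 0.21 (SE). Aspm, whose product holds spindle poles and whose loss causes microcephaly, was at 222 and 154 against 2.02 and 2.03 CPM, a log2 difference of 6.49 ± 0.35. In neither gene did the classes overlap. Cdk1 was at 290.4 and 225 against 6.72 and 9.47 CPM, and Ccnb1, its cyclin partner, at 230.3 and 153 against 5.38 and 2.03 CPM. Neil3, a DNA glycosylase gene, was at 112 and 121 against 1.34 and 1.35 CPM. These genes were nearly absent from non-cycling cells, and for the genes that follow UMIs are given because the counts there were 3 or fewer. Kif2c, which encodes a microtubule-depolymerising kinesin, had 111 and 116 UMIs against 0 and 1, a ratio of CPM of 229 with a counting interval of 40.7 to 9089.9. Plk1, a mitotic kinase gene, had 136 and 117 UMIs against 3 and 0, a ratio of 85.1 (28.8 to 416). Pif1, of a DNA helicase, had 57 and 35 UMIs against none, and was at least 31.0-fold higher with 3 counts over the non-cycling group as the floor.

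Of 22 genes whose loss causes primary microcephaly, 17 were higher in cycling radial glia and 1 was lower, beside 6.54% and 4.88% of all genes. Their median log2 difference was 1.65. Since Mki67 and Top2a chose the cells, rises of division genes on this list follow from the rule and are a description. Knl1, which ties kinetochores to microtubules, was at 244 and 194 against 6.72 and 2.71 CPM. Kif14, a kinesin of cell division, had 99 and 59 UMIs against 1 and 0, a ratio of 159 (28.2 to 6339). Ncaph, of the condensin complex, was at 72.2 and 49.4 against 2.69 and 0.677 CPM. The one that was lower, Mfsd2a, encodes a lipid transporter rather than a division protein.

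Of the 44 S-phase genes, 32 passed as higher and 0 as lower, beside 6.54% and 4.88% of all genes. All 44 had a positive difference, with a median log2 of 1.12. As with the G2/M genes, these values follow from the choice of cells and are a description. E2f8, an S-phase repressor of the E2F family, was at 45.1 and 31.8 against 2.69 and 2.03 CPM, a log2 difference of 3.99 ± 0.41. Rrm2, a subunit of the enzyme that makes deoxynucleotides, was at 98 and 118 against 12.1 and 16.9 CPM, 2.90 ± 0.22. Pcna, the sliding clamp of DNA polymerase, was at 209.6 and 179 against 79.3 and 88 CPM, 1.23 ± 0.15. For Mcm2, a helicase subunit that is loaded in G1, the classes overlapped, at 37.9 and 27.9 against 22.2 and 31.1 CPM, and the difference of 0.31 ± 0.27 did not pass.

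Among genes of G1 and cell-cycle exit, 5 of 18 were higher and 1, Ccnd3, was lower, beside 6.54% and 4.88% of all genes. Their median log2 difference was 0.31. The cells were chosen by cycling UMIs, so differences of these cell-cycle genes can follow from that choice. Cdkn2c, which encodes the Cdk4/6 inhibitor p18, was at 65.8 and 53.9 CPM in cycling and 2.69 and 7.44 in non-cycling radial glia, a rise of 3.55 ± 0.35 on the log2 scale (edgeR adjusted p = 0.000138). Cdkn2d, of the related inhibitor p19, was at 64.4 and 68.2 against 13.4 and 16.2 CPM, 2.17 ± 0.22 (adjusted p = 0.000136). The retinoblastoma relative Rbl1 rose from 21.5 and 27.1 to 54.4 and 56.5 CPM (log2 1.20, adjusted p = 0.00486). The classes did not overlap for any of these 3 called genes, and the share of all genes without overlap was not counted. The D cyclins that drive G1 differed less. Ccnd1 was at 86.5 and 87.7 against 76.6 and 78.5 CPM (adjusted p = 0.51), and Ccnd2 at 481 and 577 against 393 and 418 CPM (adjusted p = 0.11).

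**Figure D3:**
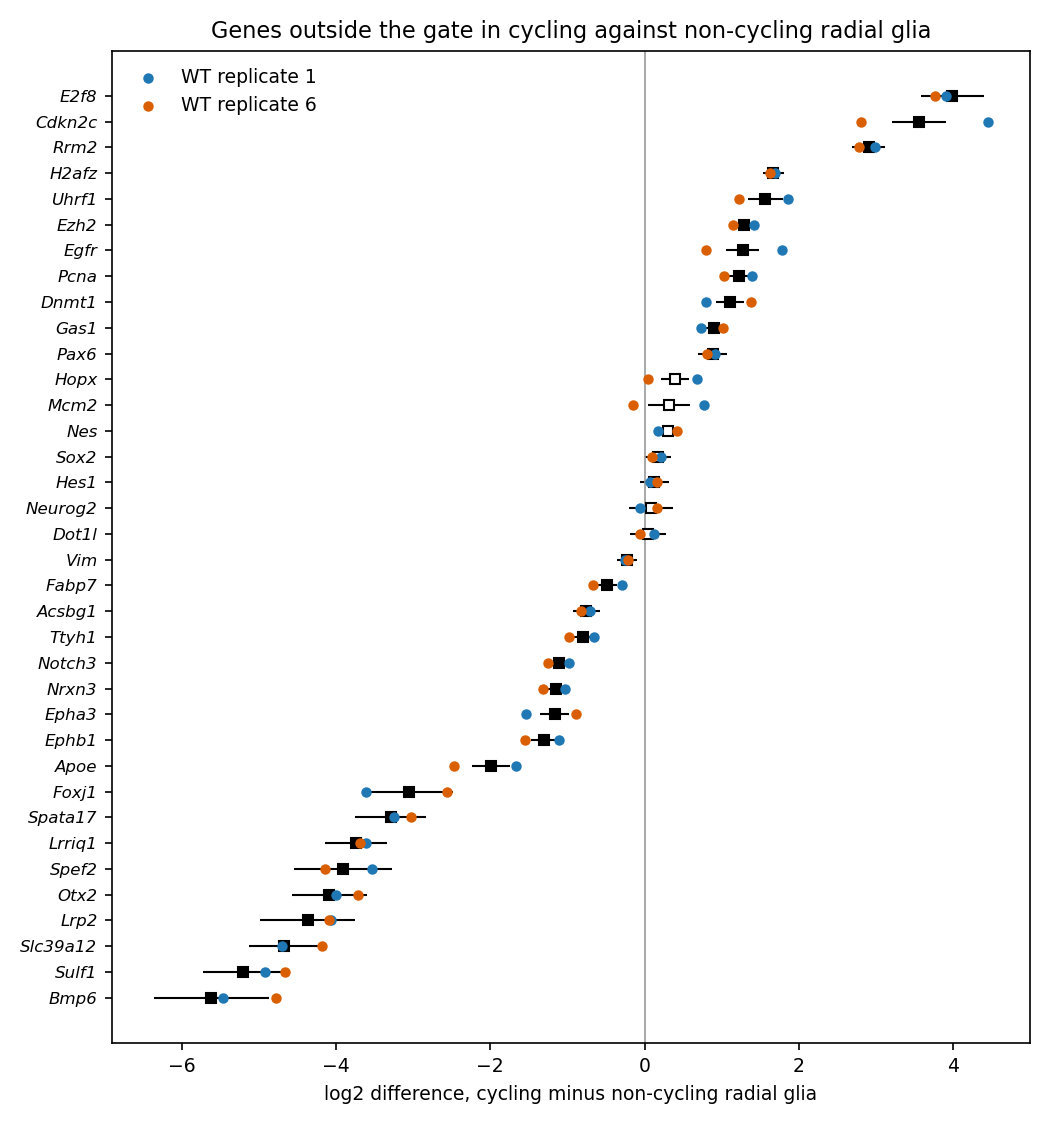
Log2 difference, cycling minus non-cycling radial glia, for 36 genes outside the gate and the G2/M list, ordered by size. Squares give the edgeR value with its SE (filled where adjusted p was under 0.05) and dots the value within each library, running from E2f8 at 3.99 through Pcna at 1.23 and Apoe at -1.99 to Bmp6 at -5.62.

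Of 17 chromatin genes, 6 rose and 0 fell in cycling radial glia, beside 6.54% and 4.88% of all genes. Rises of chromatin genes that vary with the cycle can follow from the choice of cells. H2afz, which encodes the histone variant H2A.Z, was at 3157 and 3627 CPM in cycling and 981 and 1170.5 in non-cycling radial glia, a rise of 1.67 ± 0.13 (adjusted p = 3.29e-05). Ezh2, the methyltransferase of Polycomb complex 2, was at 389.8 and 378 against 146 and 171 CPM, 1.29 ± 0.14 (adjusted p = 0.000263). Dnmt1, which copies DNA methylation onto new strands, was at 88 and 106 against 50.4 and 40.6 CPM, 1.10 ± 0.18 (adjusted p = 0.00382). These 3 called genes did not overlap between the classes, and the share of all genes without overlap was not counted. Uhrf1, at 78.7 and 60.4 against 21.5 and 25.7 CPM, and Hells, at 143 and 125 against 59.8 and 65.6 CPM, are also on the S-phase list. Dot1l, the gene targeted in the line, was at 32.9 and 27.3 against 30.3 and 28.4 CPM, overlapping between the classes, with a log2 difference of 0.05 ± 0.24 (adjusted p = 0.937).

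Of the 22 radial glia identity genes outside the gate, 2 rose and 4 fell in cycling radial glia, beside 6.54% and 4.88% of all genes, with a median log2 difference of -0.08. With the library as a block 2 rose and 10 fell, and DESeq2 called 2 and 1. Sox2, the neural stem cell factor, was at 336 and 266 against 289 and 249 CPM (adjusted p = 0.577), and Hes1, a Notch effector, at 78.7 and 67.6 against 74.6 and 60.2 CPM (adjusted p = 0.734). The intermediate filament gene Vim was at 1157 and 1305 against 1383 and 1520.2 CPM (adjusted p = 0.317) and its relative Nes at 164 and 181 against 145 and 136 CPM (adjusted p = 0.191). Pax6, the transcription factor of dorsal radial glia, was higher, at 241 and 178 against 128 and 101 CPM, a rise of 0.88 ± 0.19 (adjusted p = 0.0163). The adjusted p was 0.0668 without cells carrying markers of microglia, vessels, fibroblasts or choroid plexus, an alternative chosen after seeing the data. Gas1, a hedgehog co-receptor gene, rose from 157 and 166 to 261 and 335 CPM (0.89 ± 0.15, adjusted p = 0.0039).

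Fabp7, Ttyh1, Dbi and Mfge8 were the 4 that fell. Fabp7 was at 7490.2 and 7466 CPM in cycling and 9215 and 11891 in non-cycling radial glia, a log2 difference of -0.48 ± 0.12 (adjusted p = 0.0327), which did not pass with DESeq2 (0.112), without doublets (0.0687) or in cells matched on depth (0.103). Ttyh1, of the tweety family of membrane proteins, was at 180.2 and 155 against 284 and 306 CPM, -0.80 ± 0.14 (adjusted p = 0.00617). Outer radial glia genes in primates mark the stem cells away from the ventricle. Of 8 such genes, 0 rose and 1 fell, beside 6.54% and 4.88% of all genes. The 1 that fell was Acsbg1, of lipid metabolism, by 0.76 on the log2 scale (adjusted p = 0.0232, DESeq2 0.248). Hopx was at 177 and 128 against 111 and 124 CPM and Ptprz1 at 2487 and 1891 against 2898 and 2973, and neither passed. In cells matched on depth the Hopx difference was 0.72 (adjusted p = 0.0459).

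Of 14 glial genes, 1 rose and 4 fell, beside 6.54% and 4.88% of all genes. Egfr, the growth factor receptor of progenitors turning to gliogenesis, was at 221 and 178 CPM in cycling and 63.9 and 103 in non-cycling radial glia, a rise of 1.27 ± 0.21 (adjusted p = 0.00406). It was carried by 30 and 37 of the cycling cells, and the 2 cells with most Egfr held 35.9% and 28.1% of its UMIs there. After thinning to 1500 UMIs, 11.5% and 12.4% of cycling and 8% and 6.59% of non-cycling radial glia held an Egfr UMI, against 0.172% and 0.203% of neurons. Apoe, the lipid carrier of astrocytes, was at 437 and 247 against 1384 and 1368 CPM, a fall of 1.99 ± 0.24 (adjusted p = 0.00053). Aqp4, the water channel of astrocytes, at 12.2 and 7.79 against 20.8 and 29.1 CPM, and Aldh1l1, of folate metabolism, at 114 and 59.1 against 160.0 and 164 CPM, also fell (adjusted p = 0.0352 and 0.0489), and both calls were lost under several alternatives. Olig2, a transcription factor of the oligodendrocyte lineage, was at 22.9 and 33.8 against 19.5 and 23 CPM (adjusted p = 0.372).

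Of 11 neurogenic genes, edgeR called 0 in either direction, beside 6.54% higher and 4.88% lower among all genes. DESeq2 called 0 as well, while 2 were higher at an unadjusted p under 0.05. Their median log2 difference was 0.27. Neurog2, the proneural factor that starts neuronal differentiation, was at 18.6 and 27.9 against 19.5 and 25 CPM (adjusted p = 0.9), with overlap. Insm1, a zinc finger factor of delaminating progenitors, was at 48.6 and 70.1 against 28.9 and 43.3 CPM, 0.73 ± 0.24 (adjusted p = 0.0867, and 0.0278 with the library as a block). Of the dorsal transcription factors, Tfap2c rose from 41.7 and 42.6 to 65.8 and 70.8 CPM (adjusted p = 0.0273, DESeq2 0.327), and Emx1, the gene whose promoter drives Cre in the line, was at 31.5 and 39 against 21.5 and 28.4 CPM (adjusted p = 0.23).

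Of 16 Eph receptor, ephrin, neurexin, neuroligin and Robo genes, 3 fell and 0 rose in cycling radial glia, beside 4.88% and 6.54% of all genes. Ephb1, an ephrin receptor gene, was at 83 and 63 CPM in cycling and 179 and 185 in non-cycling radial glia, -1.31 ± 0.17 (adjusted p = 0.000826). Nrxn3, a neurexin gene, was at 217 and 171 against 445 and 426 CPM, -1.15 ± 0.16 (adjusted p = 0.00141), and Epha3 at 118 and 190.3 against 344 and 354 CPM, -1.17 ± 0.19 (adjusted p = 0.0036). For these 3 called genes the classes did not overlap, and the share of all genes without overlap was not counted. Nlgn1, a neuroligin gene, was at 1019 and 861 against 1348 and 1228 CPM (adjusted p = 0.0921, and 0.000844 with the library as a block), and Epha4 at 412 and 346 against 344 and 277 CPM (adjusted p = 0.305, and 0.0479 with the block). Of 13 Notch pathway genes only the receptor gene Notch3 passed, a share near that of all genes, at 38.6 and 30.5 against 76.6 and 73.1 CPM (-1.10, adjusted p = 0.00564), and Notch3 is also a gene of mural cells.

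The largest falls included several genes best known from cells other than radial glia. Ttr, the transthyretin gene of choroid plexus, had 13 and 0 UMIs in cycling and 6416 and 18 in non-cycling radial glia, and 2 cells of WT replicate 1 held 97.1% of its non-cycling UMIs, so that value rests on 2 cells. Otx2, a homeobox gene of choroid plexus and midline, was at 1.43 and 1.3 against 28.2 and 21 CPM, -4.08 ± 0.48 (adjusted p = 0.000423). Bmp6, of a bone morphogenetic protein, had 0 and 1 UMIs against 23 and 39, a ratio of 61.4 (counting interval 10.6 to 2465). Foxj1, the master factor of motile cilia, was at 0.715 and 2.6 against 12.8 and 16.9 CPM, -3.05 ± 0.57 (adjusted p = 0.00705). Lrriq1 was at 4.29 and 2.6 against 56.5 and 37.2 CPM, and Spef2, of the sperm flagellum and motile cilia, at 2.86 and 0.65 against 37 and 16.9. Counted per cell, 2 or more of Spef2, Lrriq1, Spata17 and Foxj1 were present in 27 and 22 non-cycling and in 0 and 1 cycling radial glia. At least 2 of Bmp6, Sulf1, Slc39a12, Lrp2 and Otx2 were present in 21 and 18 non-cycling and in 0 cycling cells of either library. Both sets were formed after their values were seen, and the non-cycling cells were shallower. The non-cycling class also held 189 and 114 CPM of endothelial and mural genes against 22 and 97, with Pdgfrb lower in cycling cells at 16.4 and 22.1 against 67.2 and 44.7 CPM (adjusted p = 0.00608). Their part in the falls was not tested. With cells carrying such markers left out, an alternative chosen after seeing the data, 588 genes (5.50%) were higher and 383 (3.58%) lower.

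Against all 15672 kept cells outside the radial glia gate, cycling radial glia were set apart as the gate intends, and these values are a description. Of 17973 genes, 3115 (17.3%) were higher and 3793 (21.1%) lower. Scaling by TMM moved the median log2 difference of all genes from -0.06 to -0.17, and without it 3690 genes were higher and 3136 lower. The radial glia list was higher in 19 of 22 genes, with a median of 2.61. Hopx was at 177 and 128 CPM against 9.79 and 8.1, and Aldh1l1 at 114 and 59.1 against 5.37 and 5.41. Hgf, the hepatocyte growth factor gene, was at 38.6 and 29.2 against 0.968 and 1.24 CPM, a log2 difference of 4.82 ± 0.28, and Col2a1, a collagen gene, at 43.6 and 42.2 against 2.18 and 2.88, 3.97 ± 0.22. In both the classes were far apart in either library. All 12 neuron genes were lower. Erbb4, the neuregulin receptor gene of interneurons, was at 35.8 and 38.3 against 1282 and 1273 CPM, and the interneuron transcript Dlx6os1 at 5.01 and 7.14 against 294 and 284 CPM.

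To compare progenitors that were gated for division in the same way, cycling radial glia were set against cycling IPCs. Of 10483 genes, 862 (8.22%) were higher and 645 (6.15%) lower in cycling radial glia. DESeq2 called 446 (4.25%) and 310 (2.96%), and edgeR with the library as a block 1116 (10.6%) and 961 (9.17%). The gate set the level of Eomes and required radial glia genes. For the radial glia, outer radial glia, glial, Notch and neurogenic lists the counts past edgeR's threshold are a description from which nothing is read. The cycling rule, in contrast, was the same in both classes. The rest of the gates differed, and the part of that in the differences of cell-cycle genes was not tested.

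Of the 53 G2/M genes, 1 was higher and 0 lower in cycling radial glia, beside 8.22% and 6.15% of all genes. Their median log2 difference was 0.12. Cdk1 was at 290.4 and 225 CPM in cycling radial glia and 221 and 238 in cycling IPCs, 0.13 ± 0.17 (adjusted p = 0.677). Aspm was at 222 and 154 against 168 and 176 CPM, 0.09 ± 0.19 (adjusted p = 0.821), and Ccnb1 at 230.3 and 153 against 149 and 169 CPM, 0.24 ± 0.20 (adjusted p = 0.522). All 3 overlapped between the classes. The exception was Ckap2, of a spindle protein, at 147 and 126 against 86.4 and 91.3 CPM (0.58 ± 0.16, adjusted p = 0.038), which DESeq2 did not call.

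Of the 44 S-phase genes, 8 were lower and 0 higher in cycling radial glia, beside 6.15% and 8.22% of all genes. Their median log2 difference was -0.30. With the library as a block 14 were lower, DESeq2 called 1, and 17 were lower and 0 higher at an unadjusted p under 0.05. Rrm2 was at 98 and 118 CPM against 179 and 246 in cycling IPCs, 2.01-fold lower (SE 0.18 on the log2 scale, adjusted p = 0.00627). Fen1, the flap endonuclease of lagging-strand synthesis, was at 32.9 and 36.4 against 54.6 and 71.5 CPM (-0.89, adjusted p = 0.0206), and Mcm2 at 37.9 and 27.9 against 53.8 and 57.5 CPM (-0.79, adjusted p = 0.0435). Neither passed with DESeq2. Pcna was at 209.6 and 179 against 239.7 and 294 CPM, without overlap (-0.49, adjusted p = 0.08, and 0.024 with the library as a block). Dnmt1 was at 88 and 106 against 117 and 139 CPM (-0.43, adjusted p = 0.128).

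The G1 machinery was lower in cycling radial glia for 5 of 17 genes and higher for 1, beside 6.15% and 8.22% of all genes. E2f1, the transcription factor that starts S phase, was at 27.2 and 22.7 CPM against 72.6 and 62.5, -1.47 ± 0.22 (adjusted p = 0.00237). Cdk6, the D-cyclin kinase, was at 225 and 201 against 457 and 390.5 CPM, -1.03 ± 0.16 (adjusted p = 0.00287). Neither of these called genes overlapped between the classes, and the share of all genes without overlap was not counted. Among microcephaly genes Cenpj, of centriole assembly, was at 30 and 26.6 against 65.2 and 50.1 CPM (-1.06, adjusted p = 0.0146) and Mfsd2a at 22.2 and 18.2 against 5.71 and 4.11 CPM (1.98, adjusted p = 0.0106). DESeq2 called neither.

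The radial glia list summed to 20109 and 18649 CPM in cycling radial glia and to 5682 and 5395 in cycling IPCs. Of its genes, 18 of 22 were higher and Lhx2 lower, beside 8.22% and 6.15% of all genes, with a median log2 difference of 1.59. Fabp7 was 6.66-fold higher, at 7490.2 and 7466 against 1071 and 1125 CPM, and Hes1 7.86-fold, at 78.7 and 67.6 against 8.15 and 9.86. Sox2, Vim and Nes were 2.18, 3.02 and 2.88-fold higher. Outer radial glia genes were higher for 5 of 7, beside 8.22% of all genes. Hopx led at 177 and 128 against 17.1 and 31.2 CPM (6.16-fold), with Ptprz1 (4.51-fold), Acsbg1 (4.38-fold) and Pmp22 (4.39-fold) also higher. Neurogenic genes were lower for 12 of 13, beside 6.15% of all genes, with a median of -2.41. Neurog2 was at 18.6 and 27.9 against 357 and 317 CPM, 14.7-fold lower, and Sstr2, a somatostatin receptor gene, at 0.715 and 4.55 against 63.6 and 64.1 CPM, 23.3-fold lower. Neurod4 had 0 and 2 UMIs against 39 and 16, a ratio of 33.1 (counting interval 8.73 to 279.9).

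**Figure D4:**
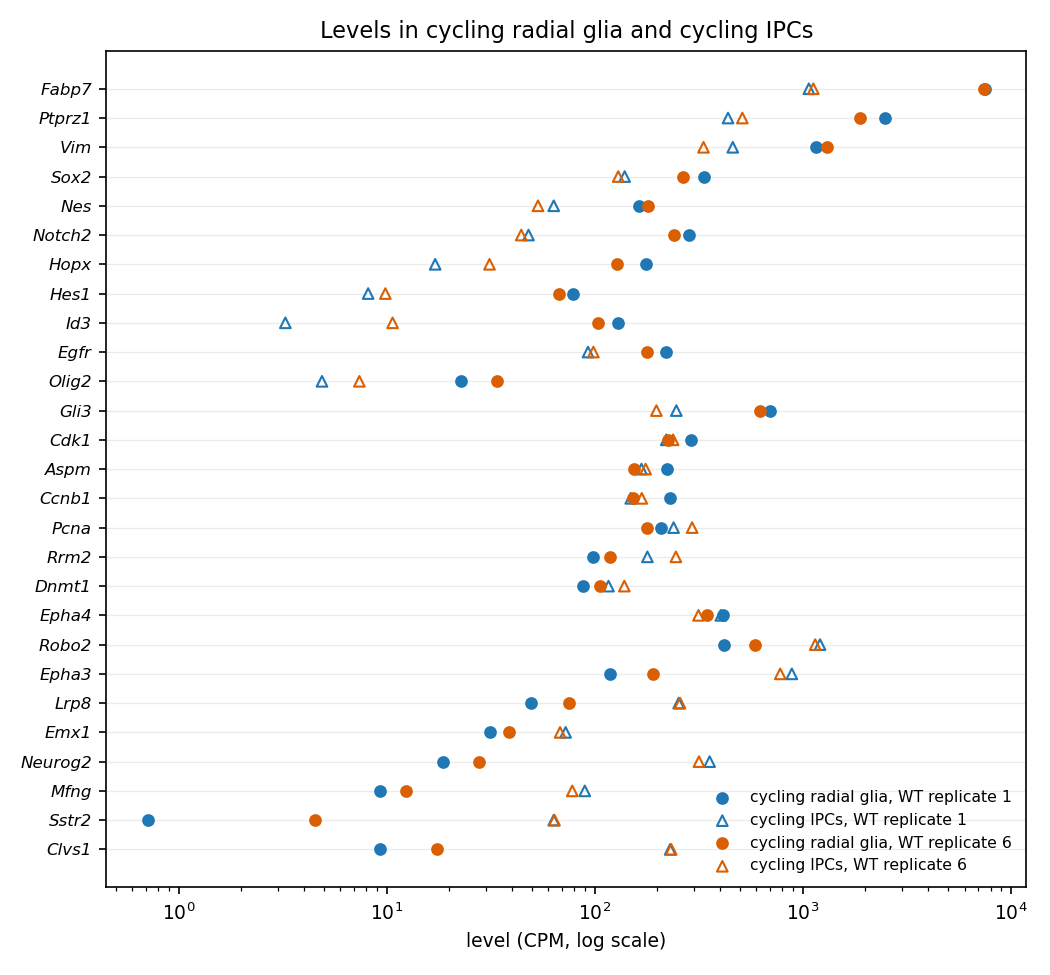
Level in CPM (log axis) of single genes in cycling radial glia (circles) and cycling IPCs (triangles), 1 symbol per library. Cdk1, Aspm and Ccnb1 overlap between the types, while Hes1 and Fabp7 lie higher in radial glia and Neurog2 lower.

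Glial and Notch genes were also higher in cycling radial glia, 9 of 14 and 6 of 14 genes, beside 8.22% of all genes. Nfib and Nfix were lower in the first and Dll1 and Mfng in the other list, beside 6.15%. Radial glia had to hold at least 3 of 6 genes, Hes5, Sox9, Slc1a3 and Aldoc among them, and IPCs did not. These counts can follow from that rule and are a description. Olig2 was at 22.9 and 33.8 CPM against 4.89 and 7.4, 2.16 ± 0.38 (adjusted p = 0.00582), and was found in 13 and 17 of the cycling radial glia. Egfr was at 221 and 178 against 92.9 and 98.6 CPM, 1.02 ± 0.16 (adjusted p = 0.00359). Without likely doublets its difference was 0.35 (adjusted p = 0.392). Notch2, a receptor gene, was at 285 and 239.7 against 48.1 and 44.4 CPM, 2.47 ± 0.17 (adjusted p = 8.75e-05), and Lfng, which modifies Notch receptors, at 30.8 and 17.5 against 2.45 and 1.64 CPM (3.46, adjusted p = 0.00308). Mfng, a related gene, was on the IPC side, at 9.3 and 12.3 against 89.7 and 78.1 CPM (-2.97, adjusted p = 0.000154).

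Of 15 Eph receptor, ephrin, neurexin, neuroligin and Robo genes, 2 (Efnb1 and Nlgn3) were higher and 4 (Epha3, Epha7, Robo1 and Robo2) lower in cycling radial glia, beside 8.22% and 6.15% of all genes. Nlgn3, a neuroligin gene, was at 30.8 and 26.6 CPM against 12.2 and 13.98 (1.09, adjusted p = 0.038, DESeq2 0.362). Epha3 was at 118 and 190.3 CPM against 887 and 780.2 in cycling IPCs, -2.47 ± 0.22 (adjusted p = 0.000239), Epha7 was lower by 1.41 (adjusted p = 0.00273), and Robo2, a Slit receptor gene, was at 419 and 591 against 1212 and 1149 CPM (-1.26, adjusted p = 0.00185). Epha4 and Nlgn1 did not pass (adjusted p = 0.928 and 0.396). Gli3, a transcription factor of hedgehog signalling, was higher at 698 and 625 against 247 and 198 CPM (1.54, adjusted p = 0.000571). Lrp8, the reelin receptor gene, was lower at 49.3 and 75.3 against 254 and 257 CPM (-2.06, adjusted p = 0.000281), as was Emx1 at 31.5 and 39 against 72.6 and 68.2 CPM (-1.03, adjusted p = 0.00781, DESeq2 0.0758). Of 17 chromatin genes, 1 was higher and 2 were lower, a share near that of all genes. Dnmt3a, of new DNA methylation, was higher (0.86, adjusted p = 0.0107), and Tet2, which oxidises methylcytosine, and Mllt3, of a Dot1l-linked complex, were lower (-0.83 and -1.48, adjusted p = 0.0228 and 0.000571). DESeq2 called neither Dnmt3a nor Tet2.

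The largest differences came partly from few cells. Igf1, the insulin-like growth factor gene, had 73 and 75 UMIs in cycling radial glia and 0 in cycling IPCs, at least 41.0-fold higher, but 2 cells per library held 90.4% and 88.0% of them. Mybpc1, of a muscle protein, had 42 and 26 UMIs against 0, with 92.9% and 84.6% in 2 cells, and Npy, the neuropeptide Y gene, 168 and 111 against 9 and 5, with 97.6% and 65.8% in 2 cells. At least 5 UMIs of 2 or more of these 3 genes were found in 2 and 3 cycling and 1 and 6 non-cycling radial glia, 0 cycling IPCs, and 1 and 0 non-cycling IPCs, a grouping made after their values were seen. Hepacam, of a glial adhesion protein, was spread over 16 and 25 cycling radial glia with 30 and 34 UMIs against 0, at least 17.7-fold higher. Id3, of an inhibitor of bHLH factors, was found in 36 and 45 cells, at 130.2 and 103 against 3.26 and 10.7 CPM (4.02 ± 0.34, adjusted p = 0.000195). Globin genes were also higher, with Hba-a1 at 687 and 311 against 196 and 220.3 CPM (1.23, adjusted p = 0.0313), a difference of -0.29 in cells matched on depth.

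Whether the change on cycling differed between the progenitor types was tested as an interaction over 8 sums, the cycling minus non-cycling difference in radial glia less that in IPCs. Of 11722 genes, 13 (0.111%) had a more positive change and 77 (0.657%) a more negative one in radial glia, 0.768% in all, and 1415 had an unadjusted p under 0.05. With the library as a block the counts were 69 (0.589%) and 183 (1.56%), and with DESeq2 9 (0.0768%) and 88 (0.751%). All 4 classes come from the same 2 libraries. Cycling and non-cycling cells were split by Mki67 and Top2a, so differences of cell-cycle genes can follow from that choice.

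Of the 44 S-phase genes, 12 were more negative in radial glia and 0 more positive, beside 0.657% and 0.111% of all genes. Their median was -1.11 against 0.04 over all genes. At an unadjusted p under 0.05, 32 were more negative and 0 more positive, DESeq2 called 10 as more negative, and edgeR with the block 16. On log2(CPM + 1), 43 of the 44 genes changed less in radial glia than in IPCs, with a median change of 1.09 against 2.36. The G2/M list had 1 of 53 genes called, Jpt1, more positive, beside 0.768% of all genes called, and a median of -0.51. DESeq2 called 2 of them more negative and 1 more positive, edgeR with the block 2 and 2, and at an unadjusted p under 0.05 there were 13 and 2. Of its genes 41 of 53 changed less in radial glia, with medians of 4.58 and 4.99.

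**Figure D5:**
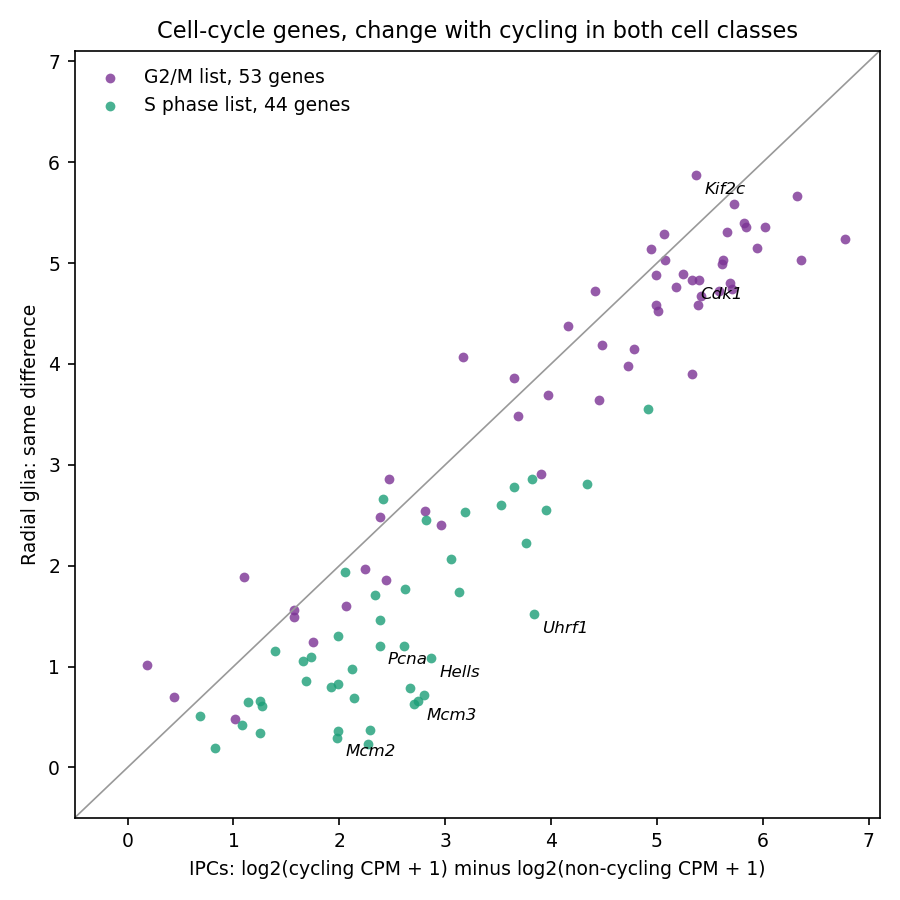
Change on cycling, log2(CPM + 1) of cycling minus non-cycling cells, in IPCs (x axis) and radial glia (y axis), 1 point per gene of the S-phase and G2/M lists, with the line of equality. Of the S-phase genes 43 of 44 lie below the line, with medians of 2.36 in IPCs and 1.09 in radial glia.

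For Uhrf1, Hells and Pcna, the ratio between the types was larger in the non-cycling than in the cycling classes. In the cycling classes Hells and Pcna had lower levels in radial glia than in IPCs, but edgeR called neither difference. Uhrf1 was at 78.7 and 60.4 CPM in cycling radial glia and 78.3 and 83.9 in cycling IPCs, but at 21.5 and 25.7 in non-cycling radial glia and 6.72 and 2.78 in non-cycling IPCs, an interaction of -2.47 ± 0.42 (adjusted p = 0.0265). Hells was at 143 and 125 and at 202 and 167 CPM in the cycling classes, and at 59.8 and 65.6 and at 27.1 and 21.8 in the non-cycling ones (-1.76 ± 0.24, adjusted p = 0.0167). For Pcna the non-cycling levels were 79.3 and 88 CPM in radial glia and 48.1 and 52.9 in IPCs (-1.13 ± 0.20, adjusted p = 0.0361). In all 3 the non-cycling radial glia stood above the non-cycling IPCs in both libraries. After thinning, at least 3 S-phase UMIs were held by 32.0% and 33.0% of non-cycling radial glia and 14.8% and 13.1% of non-cycling IPCs. The interactions of S-phase genes can follow from how Mki67 and Top2a split the cells. Of the helicase genes on the S-phase list, edgeR called Mcm3, Mcm4, Mcm5 and Mcm6 in the interaction, but not Mcm2 and Mcm7. Mcm3 was at 57.8 and 67.7 CPM in non-cycling radial glia and 16 and 15.2 in non-cycling IPCs (-2.09, adjusted p = 0.0126), and Mcm5 at 27.6 and 28.4 against 9.05 and 8.35 (-1.93, adjusted p = 0.0167). Mcm2 missed the threshold at -1.69 (adjusted p = 0.0587, and 0.0306 with the library as a block). Of the 12 S-phase genes called, 10 had a promoter in the table and 7 of these held an E2F-type site, against 8 of 23 other S-phase promoters. Mcm3 and Mcm5 were named after their values were seen.

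Ccnd1, the D1 cyclin gene of G1, was at 86.5 and 87.7 CPM in cycling and 76.6 and 78.5 in non-cycling radial glia, whereas in IPCs it was at 77.5 and 90.4 and at 24 and 18.7 (-1.75 ± 0.22, adjusted p = 0.0167). Of 22 radial glia genes, 5 (Fabp7, Nes, Mfge8, Ttyh1 and Gas1) had a more negative change and 0 a more positive one, beside 0.657% and 0.111% of all genes, and 4 of the 22 values were positive. Both radial glia classes had to hold at least 3 of 6 radial glia genes, and IPCs did not. Values of radial glia and glial genes can follow from that rule and are a description. Fabp7 went from 669.9 and 556 CPM in non-cycling to 1071 and 1125 in cycling IPCs while it was lower in cycling than in non-cycling radial glia (-1.28 ± 0.17, adjusted p = 0.0167). Apoe (-2.60 ± 0.40, adjusted p = 0.0196), Mfge8, of a secreted phagocytosis signal (-1.46), and Nes (-1.30, adjusted p = 0.0313) were also called. Of the mitotic genes, Cdk1 differed by -0.54 ± 0.38 (adjusted p = 0.619), Aspm by -0.32 ± 0.71 (adjusted p = 0.91) and Ccnb1 by -0.70 ± 0.70 (adjusted p = 0.755). Ccnb2 differed by -1.65 ± 0.38 (adjusted p = 0.0826), and by -1.92 (adjusted p = 0.0358) with Mki67 and Top2a summing to at least 4. An adjusted p above the threshold does not show that their changes were equal.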

How the data were processed

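Transcriptomes of single cells from the dorsal telencephalon of WT embryos at E16.5 were measured in 2 libraries, WT replicate 1 and WT replicate 6, after papain dissociation. Per the labels, the authors counted reads with Cell Ranger 7.0.0, and the submitters' processing notes name the build mm10. The matrices deposited by the authors hold UMI counts that were not normalized, for barcodes already called as cells. Annotation release and the use of intronic reads are not given in the sources used here. If introns were counted, long genes hold more counts, so each gene was compared only with itself.

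The members and the gene lists were chosen with earlier results of these data known. Members were gated on the raw counts as described. Likely doublets were scored by the Scrublet method with scanpy 1.11.5 (2 simulated doublets per cell, 0.8% per 1000 cells) and left out only as an alternative. Because cells are not replicates, the UMI counts of each class were added up within a library and compared with edgeR 4.0.16 (TMM, filterByExpr, glmQLFit and glmQLFTest, two-sided) with Benjamini-Hochberg adjustment over all genes tested. The 14 gate genes stayed in the fit and were given no test. DESeq2 1.42.0, other gates, filters and scalings were alternatives. Each library gave a sum to every class, which pairs the sums by library number. How far a library's sum lay from its class mean was correlated between classes (r = 0.15 with non-cycling radial glia, 0.16 with other cells and 0.26 with cycling IPCs, over genes, which are not independent replicates). The fits were tested on simulated data. Genes named were, per comparison, the 10 largest rises and 10 largest falls past an adjusted p of 0.05 with at least 20 CPM in the higher class, up to 4 members of each list with the largest difference, and a fixed set of progenitor and cycle genes.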

Additional observations from a re-analysis of the deposited data

Results flagged for a closer look

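For 21 of the genes named, the change on cycling in radial glia differed from that in IPCs by the interaction test (adjusted p under 0.05), while 0.768% of 11722 genes passed it. Values are log2 changes, cycling minus non-cycling, in radial glia less the same in IPCs, over 8 sums from 2 libraries. Among DNA replication and S-phase genes the value was -2.47 for Uhrf1, -2.13 for Dtl, -2.09 for Mcm3, -1.95 for Mcm4, -1.93 for Mcm5, -1.76 for Hells, -1.60 for Mcm6, -1.42 for Pola1, a DNA polymerase subunit gene, and -1.13 for Pcna. Gmnn, which encodes the replication licensing inhibitor geminin, had -1.615. Values of S-phase genes can follow from how Mki67 and Top2a split the cells. Dtl, Mcm3, Mcm4, Mcm5, Mcm6, Gmnn and Pola1 were picked from the S-phase list after their values were seen. Ccnd1 had -1.75. Among radial glia and glial genes the value was -1.28 for Fabp7, -1.30 for Nes, -1.46 for Mfge8, -2.50 for Pmp22, -2.60 for Apoe, -2.69 for Mlc1, an astrocyte membrane gene, and -2.98 for Metrn, of the secreted factor meteorin. Values of radial glia and glial genes can follow from the radial glia gate, which IPCs did not have to pass. Ildr2 had -4.33. Ust, a sulfotransferase gene, and Negr1, a neuronal adhesion gene, had more positive changes in radial glia, of 2.28 and 1.501. Some of these calls were lost under an alternative. Ust had an adjusted p of 0.0523 without doublets and 0.0503 without barcodes found in both libraries, an alternative chosen after seeing the data. Pmp22 had 0.226 and Mlc1 0.0752 with 3000 to 30000 UMIs, and without the filter on low counts Pmp22 had 0.0746, Pcna 0.0621 and Nes 0.0594. The classes differed in depth, and the part of depth in these values was not tested.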

How the results depend on the processing

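Results rest on 242 cycling radial glia in 2 libraries, so genes of few UMIs were measured with wide error. Over 151 named results, 1545 alternative values with a test kept direction and side of the threshold, 56 lost the call, 20 gained one and 8 reversed. Of the values without either library, which have no test, 240 moved by less than the spread and 62 by more. That spread was the SD of the same 2 single-library values. The counts therefore say little about how well the libraries matched. In the comparison with non-cycling radial glia, 1276 genes were called, 598 with DESeq2. Against other cells 6908 were called, 3509 in cells matched on depth. Against cycling IPCs 1507 were called, 756 with DESeq2. For the interaction 90 were called, 43 without the filter on low counts, 192 without doublets, 157 without cells carrying other-type markers (chosen after seeing the data) and 252 with the library as a replicate block. Causes were not tested. Besides the calls given with it in the text, the block gained Ccnd2 (0.39, adjusted p = 0.0103), Vim (-0.23, 0.0242) and Ptprz1 (-0.42, 0.00632) between cycling and non-cycling radial glia, and changed no other call of a named gene. The cycling share of 35.8% was 34.4% without doublets, 37.6% with at least 4 radial glia genes, 26.4% with Mki67+Top2a of at least 4, 39.9% with 3000 to 30000 UMIs, and 34.9% to 36.6% leaving out either library. Leaving out a library left 1 sum a class, giving values without a test. Shares of cycling radial glia with a UMI, thinned to 1500 UMIs and unthinned, were 23.4% and 55.6% for Aspm, 13.2% and 58.4% for Dnmt1, and 11.95% and 27.6% for Egfr. Values that reversed were those of Dot1l (-0.012 without doublets) and Neurog2 (-0.10 without doublets, -0.35 with Mki67+Top2a of at least 4, -0.0224 without other-type markers) against non-cycling radial glia, Aspm (-0.0394) and Cdk1 (-0.0039) with Mki67+Top2a of at least 4, Hba-a1 (-0.29 matched on depth) against cycling IPCs, and Aspm in the interaction (0.0528 with 3000 to 30000 UMIs).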

Other observations

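The 77 radial glia with exactly 1 UMI of Mki67 and Top2a together, which entered no comparison, were examined apart. They summed to 2683 and 2227 CPM over the S-phase list, between the non-cycling and cycling classes in both libraries, and to 4734 and 3610 CPM over the G2/M list. After thinning to 1500 UMIs, 61.1% and 56.1% of them held at least 3 S-phase UMIs, against 72.6% and 61.2% of cycling and 32.0% and 33.0% of non-cycling radial glia. Their 22-gene radial glia list summed to 25215 and 24162 CPM.

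Hopx, of a homeodomain-only protein, was found after thinning in 21.2% and 24.0% of cycling and 15.4% and 13.7% of non-cycling radial glia, in 3.23% and 4.35% of cycling IPCs and in 0.286% and 0.0508% of excitatory neurons. Unthinned, 59.3% and 51.9% of cycling radial glia and 37.1% and 33.5% of non-cycling radial glia held a Hopx UMI.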
